A study of Mus musculus with 6 samples.

Results

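The de novo route makes nicotinamide adenine dinucleotide (NAD) from the amino acid tryptophan, and 8 genes of that route were examined in kidneys of mice with a knockout of the NAD salvage enzyme NAMPT and of control mice. The 8 genes were Tdo2, Afmid, Kmo, Kynu, Haao, Qprt, Acmsd and Aadat, which encode enzymes of the kynurenine pathway. They were taken by name, and each probe was assigned to a gene through the transcript accession printed on the array design. All 8 had at least 1 probe, 10 probes in all, among 21154 named genes and 55681 probes on the array. The tissue was the whole kidney of male mice of strain C57BL/6J. The 3 Nampt knockout animals carried what the labels call an iNampt-conditional knockout, and the other 3 animals were labelled as controls. Total RNA of each animal was hybridised to 1 single-colour Agilent microarray. The series title names a Nampt and Sirt6 axis in renal proximal tubules, matrix deposition and diabetic nephropathy. The driver of the deletion, the age of the animals, any diabetic treatment and the alleles carried by the controls are not given in the sources used here. Whole kidneys also hold many cells outside the proximal tubule.

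Kidney cells can make NAD by salvage of nicotinamide, which NAMPT starts, from nicotinic acid, or from tryptophan. In the de novo route tryptophan is opened by TDO2 or by an IDO enzyme, and AFMID, KMO, KYNU and HAAO carry the product on to aminocarboxymuconate semialdehyde. That unstable compound closes by itself into quinolinate, which QPRT turns into nicotinic acid mononucleotide, the entry to NAD. ACMSD removes the same compound before it can close and sends it towards oxidation, and AADAT diverts kynurenine into kynurenic acid. The route is best known in liver, and the proximal tubule of the kidney is the other main site in the body where it is complete or nearly so.

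The share of spots well above background ran from 57.3% to 61.5% on knockout arrays and from 61.9% to 63.3% on control arrays, and 0 spots were saturated. All 6 arrays lay on 1 slide, with knockouts 2 and 3 in its second row and knockout 1 and the 3 controls in its first. The lowest signal called well above background was 20.9, 29.6 and 32.2 units in knockouts 1, 2 and 3, against 19.7, 18.6 and 18.5 units in controls 1, 2 and 3. Levels below are log2 of the processed signal after subtraction of the array's 75th percentile, so a level of 0 is that percentile, and differences are knockout minus control on the same log2 scale. Levels of different genes come from different probes and were compared only as differences within an animal, set knockout against control. The labels number the mice but say nothing of litters or pooling, and every p-value rests on the spread between these 6 samples.

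Nampt itself was at 1.80, 1.502 and 1.53 in knockouts 1, 2 and 3, against 2.78, 2.59 and 2.65 in controls 1, 2 and 3. It fell to 0.480-fold (95% confidence interval 0.406 to 0.568; limma adjusted p = 0.0431). The direction held in every alternative run for it, but the adjusted p was 0.0518 with each probe tested on its own, 0.0579 with quantile normalisation, 0.0733 with slide row as a block and 0.0891 in the fit with a replicate block. It was 0.167 without knockout 2, 0.180 without knockout 3, 0.0731 without control 1, 0.166 without control 2 and 0.179 without control 3. In whole kidneys a loss of cells of a type and less RNA per cell cannot be told apart, here and for every gene below. The convoluted and straight proximal tubule marker lists had 10 of 10 and 8 of 8 genes well above background on every array.

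Against that loss of Nampt, the transcripts of Haao, Qprt, Acmsd, Afmid and Kmo differed little between knockout and control kidneys. Those of Kynu and Aadat were measured less precisely, and Tdo2 could not be compared. Of the 8 genes, 7 were well above background on all 6 arrays and were tested. By limma, 0 of the 7 had an adjusted p (Benjamini-Hochberg, over all 15307 genes tested) under 0.05, where 0.17% of all genes did, 0.105% higher and 0.0653% lower in knockouts. At an unadjusted p under 0.05 there was 1, Kmo, where 12.8% of all genes were. The median difference of the 7 genes was 0.043, against -0.0078 over all genes. Their median absolute difference was 0.075, against 0.077 over all genes. For Haao, Qprt, Acmsd, Afmid and Kmo the 95% confidence interval of the fold reached no lower than 0.857 and no higher than 1.197. For Kynu and Aadat it was wider. These intervals are from the fit that leaves slide row out. With slide row as a block the standard errors of Haao, Qprt, Acmsd, Afmid and Kmo were larger, from 0.075 (Kmo) to 0.11 (Afmid). Slide row 2 held knockouts alone, so within a row only knockout 1 can be set against the controls. With slide row as a block the differences were 0.034 for Afmid, 0.097 for Kmo, -0.19 for Kynu, -0.059 for Haao, -0.12 for Acmsd, -0.012 for Qprt and 0.89 for Aadat, and 0 of the 7 were called.

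**Figure D1:**
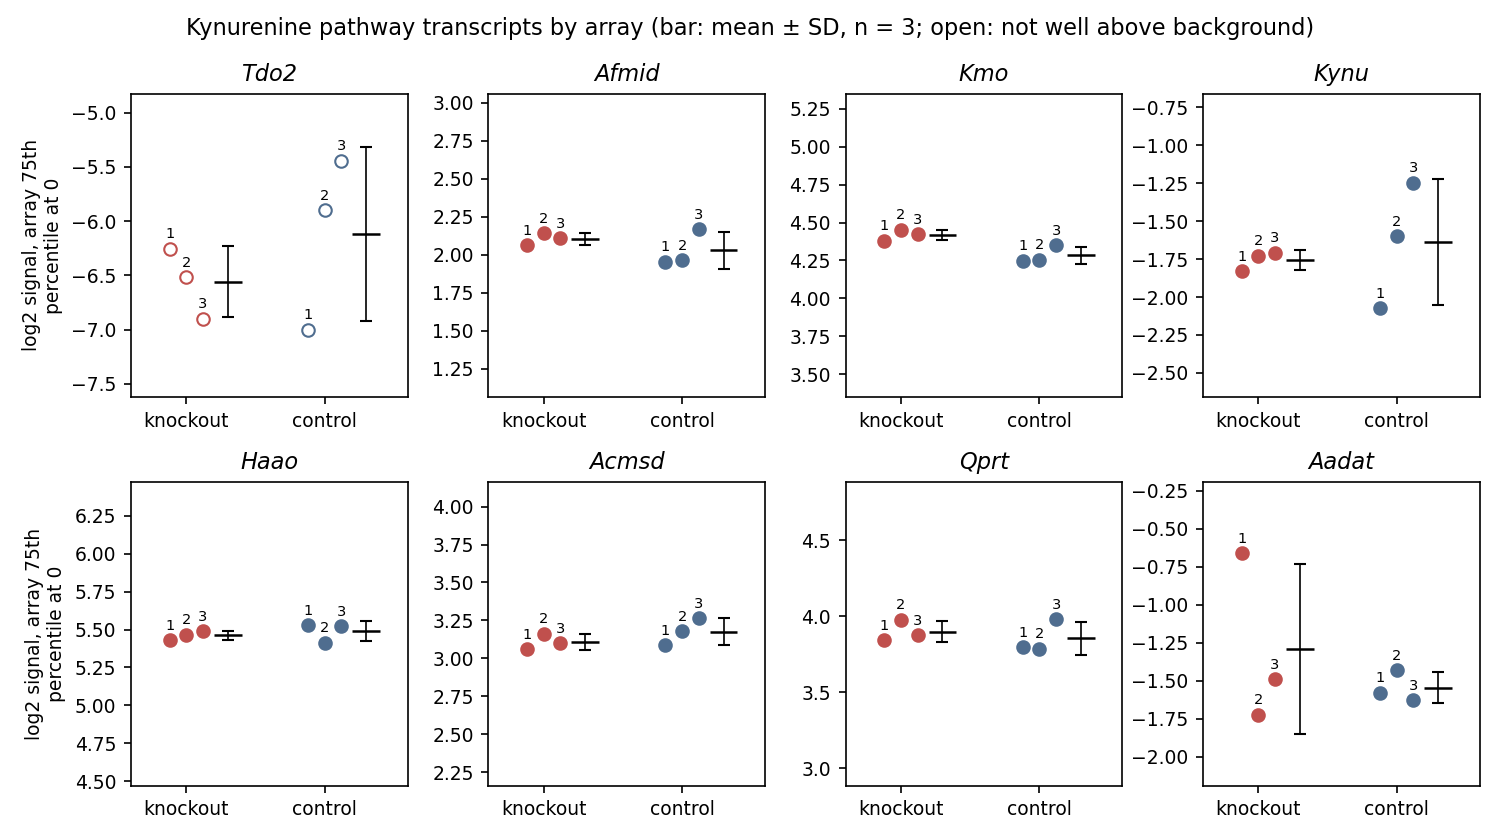
Each panel plots 1 gene, with the log2 signal on the vertical axis (array 75th percentile at 0) and 1 numbered point per animal, knockouts at the left and controls at the right; bars to the right of the points are mean ± SD (n = 3), and open points are not well above background. The Tdo2 axis is wider than the others. The points of Haao, Qprt, Acmsd, Afmid and Kmo lie close together, knockout 1 stands above the rest for Aadat, and the controls spread widely for Kynu.

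The step that opens tryptophan was not measurable through Tdo2, which encodes the tryptophan dioxygenase known mainly from liver. Its probe read 10.9, 8.53 and 6.73 units in knockouts 1, 2 and 3, against 6.83, 14.6 and 18.3 units in controls 1, 2 and 3, and was not well above background on any array. No fold is given for it. Ido1, the interferon-inducible dioxygenase, was likewise not well above background on any of the 6 arrays. Ido2, a related dioxygenase of low activity, was detected on all of them. It was at -0.48, -0.21 and -0.20 in knockouts 1, 2 and 3, against -0.47, -0.57 and -0.48 in controls 1, 2 and 3. Knockout 1 lay among the controls, so the groups overlapped (difference 0.21 ± 0.09, SE; adjusted p = 0.407).

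Afmid encodes the formamidase that releases kynurenine. Afmid was at 2.06, 2.14 and 2.11 in knockouts 1, 2 and 3, against 1.95, 1.97 and 2.17 in controls 1, 2 and 3. The knockouts lay inside the range of the controls, of which control 3 was the highest of all 6 animals. The difference was 0.075 ± 0.072 (SE; adjusted p = 0.727), with a fold between 0.932 and 1.19 (95% confidence interval).

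Kmo encodes kynurenine 3-monooxygenase, a mitochondrial enzyme that hydroxylates kynurenine, and was the 1 gene of the 7 whose groups did not overlap. Kmo was at 4.38, 4.45 and 4.42 in knockouts 1, 2 and 3, against 4.25, 4.26 and 4.35 in controls 1, 2 and 3. All 3 knockouts lay above all 3 controls, with knockout 1 and control 3 nearest to each other across the groups. Groups did not overlap in 19.5% of all genes tested, and in 9.04% the knockouts were the higher. The difference was 0.13 ± 0.05 (SE), or 1.097-fold (95% confidence interval 1.006 to 1.197), and missed the threshold (adjusted p = 0.368). A second Kmo probe, A_55_P2145606, gave 2.38, 2.47 and 2.37 in knockouts 1, 2 and 3, against 2.25, 2.22 and 2.31 in controls 1, 2 and 3. The groups did not overlap there either, and its difference was 0.14, close to the 0.13 of the probe tested, A_66_P106836. The 2 probes read the same RNA extracts and are not separate replicates. The unscaled signal of the tested probe was 17305, 17085 and 17272 units in knockouts 1, 2 and 3, against 16653, 16659 and 16237 units in controls 1, 2 and 3. By that probe the groups were apart before the arrays were scaled as well. By the second probe they overlapped before scaling, with knockout 3 at 4153 units and control 1 at 4181 units.

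Kynu encodes kynureninase, which splits hydroxykynurenine into alanine and hydroxyanthranilate. Kynu was at -1.83, -1.73 and -1.71 in knockouts 1, 2 and 3, against -2.07, -1.60 and -1.25 in controls 1, 2 and 3. The knockouts lay close together and inside the range of the controls, which spanned 0.83. The difference was -0.12 ± 0.20 (SE; adjusted p = 0.857), with a fold between 0.655 and 1.30 (95% confidence interval). Without control 3 the sign turned (0.080), and without control 1 the difference was -0.33. The second Kynu probe, A_55_P1965975, ordered the controls the same way, at -2.01, -1.59 and -1.31 in controls 1, 2 and 3. It read -2.07, -1.77 and -1.76 in knockouts 1, 2 and 3, and its difference was -0.23.

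Haao encodes the iron dioxygenase that opens hydroxyanthranilate. Haao was at 5.43, 5.47 and 5.49 in knockouts 1, 2 and 3, against 5.53, 5.41 and 5.52 in controls 1, 2 and 3. The groups overlapped and all 6 animals lay within 0.12 of each other, the narrowest range of the 7 genes. The difference was -0.027 ± 0.053 (SE; adjusted p = 0.873), with a fold between 0.898 and 1.07 (95% confidence interval).

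At the branch that follows, Acmsd encodes the decarboxylase that takes the intermediate away from NAD, and Qprt the phosphoribosyltransferase that commits quinolinate to it. Acmsd was at 3.06, 3.16 and 3.10 in knockouts 1, 2 and 3, against 3.09, 3.18 and 3.26 in controls 1, 2 and 3. The groups overlapped, with control 3 the highest, and the difference was -0.069 ± 0.063 (SE; adjusted p = 0.710; 95% confidence interval of the fold 0.857 to 1.06). Qprt was at 3.84, 3.98 and 3.88 in knockouts 1, 2 and 3, against 3.80, 3.79 and 3.98 in controls 1, 2 and 3. Those groups overlapped too, and the difference was 0.043 ± 0.074 (SE; adjusted p = 0.855; 95% confidence interval of the fold 0.909 to 1.17). The scaling mattered for how Acmsd looked: before scaling its signal was 6924, 6993 and 6905 units in knockouts 1, 2 and 3, against 7448, 7899 and 7645 units in controls 1, 2 and 3, which do not overlap. The log2 75th percentile that scaling takes off was 9.70, 9.61 and 9.65 in knockouts 1, 2 and 3. In controls 1, 2 and 3 that percentile was 9.78, 9.77 and 9.64. The share of all genes apart before scaling was not counted.

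The level of Acmsd relative to Qprt in the same animal does not depend on a scaling factor between arrays. This log2 signal of Acmsd minus that of Qprt was -0.78, -0.82 and -0.77 in knockouts 1, 2 and 3, against -0.71, -0.61 and -0.72 in controls 1, 2 and 3. All 3 knockouts lay below all 3 controls. The balance averaged -0.79 ± 0.02 in knockouts and -0.68 ± 0.06 in controls (SD, n = 3 each), a difference of -0.11 (exact two-sided permutation p = 0.1, the smallest that 3 animals against 3 can give). The design cannot place it under 0.05, and over the 2 balances examined the adjusted p was 0.2. Without control 2 the difference was -0.077. The other, Haao minus Acmsd, was 2.37, 2.30 and 2.39 in knockouts 1, 2 and 3, against 2.44, 2.23 and 2.26 in controls 1, 2 and 3, and overlapped (difference 0.042; exact two-sided permutation p = 0.7, adjusted p = 0.7). Such a balance shows unequal change of 2 probes and does not say which of the genes moved.

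**Figure D2:**
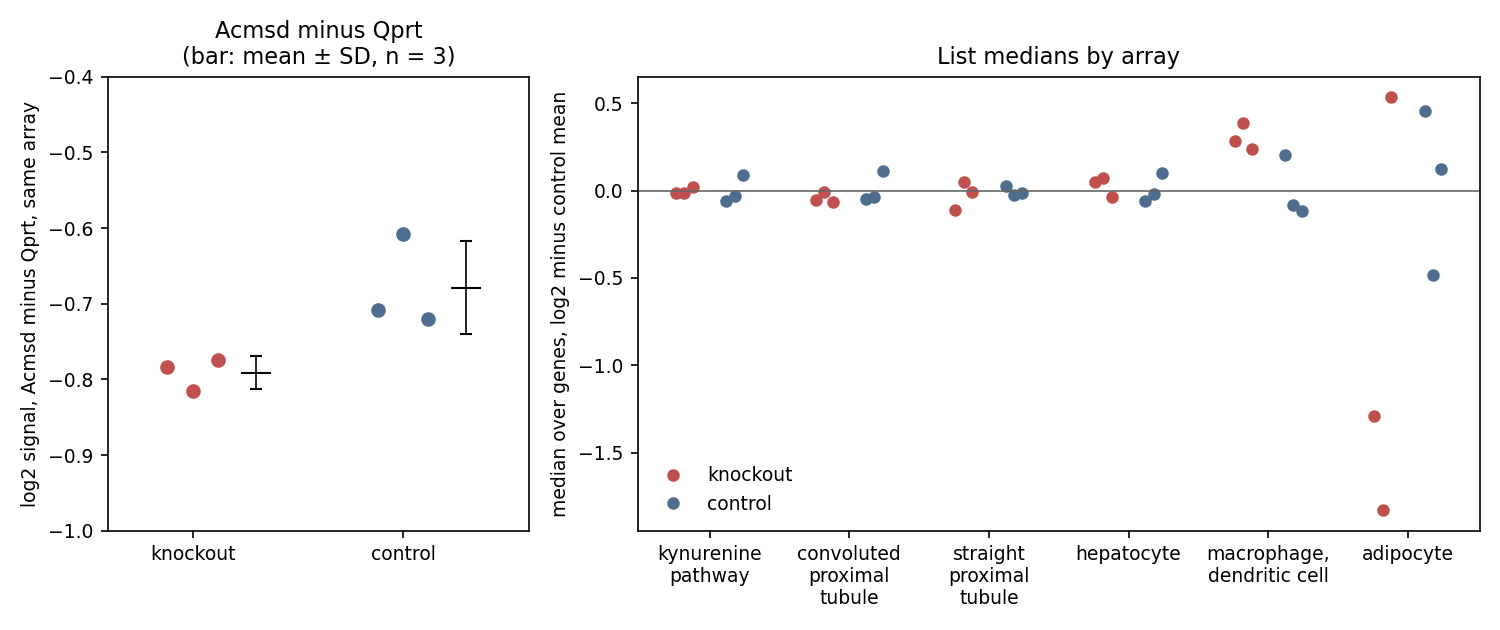
The left panel plots the log2 signal of Acmsd minus that of Qprt in each animal, with mean ± SD (n = 3) beside the points; the knockouts lie between -0.82 and -0.77 and the controls between -0.72 and -0.61. The right panel plots, for each animal, the median over the genes of a list of the log2 signal minus the control mean, knockouts at the left of each pair: the kynurenine pathway and both proximal tubule lists stay close to 0, the macrophage list lies at 0.24 to 0.39 in the knockouts and at -0.11 to 0.21 in the controls, and the adipocyte list spreads widely.

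Aadat encodes kynurenine aminotransferase II, which also acts on aminoadipate in the breakdown of lysine. Aadat was at -0.66, -1.72 and -1.49 in knockouts 1, 2 and 3, against -1.58, -1.43 and -1.63 in controls 1, 2 and 3. Knockout 1 stood well above the other 5 animals, while knockouts 2 and 3 lay on either side of the control mean. In unscaled signal knockout 1 read 526 units and the other 5 animals between 236 and 324 units. The difference was 0.25 ± 0.27 (SE; adjusted p = 0.757), with a fold between 0.752 and 1.89 (95% confidence interval), and the sign turned without knockout 1 (-0.062). With slide row as a block, a fit in which knockout 1 alone is set against the controls beside it, Aadat was at 0.89 (adjusted p = 0.112).

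**Figure D3:**
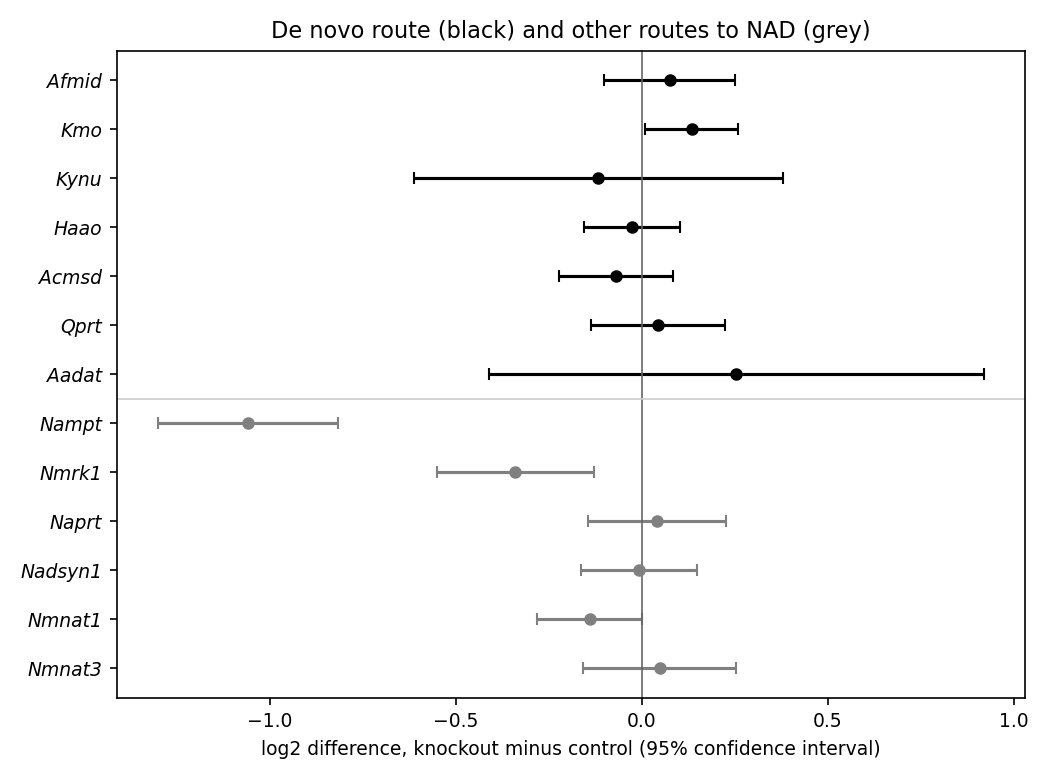
Points are the log2 difference, knockout minus control, on the horizontal axis, with limma's 95% confidence interval as bars (n = 3 each), for the 7 tested genes of the de novo route (black) and for enzymes of the other routes (grey). Nampt lies at -1.06 and Nmrk1 at -0.34, while every black point lies between -0.12 and 0.25.

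The precision behind these differences varied among the genes. The standard error was smallest for Kmo at 0.051 and Haao at 0.053, and largest for Aadat at 0.27 and Kynu at 0.20, where the median over all genes was 0.073. The lowest signal of the tested probe on any array was 208 units for Kynu and 236 units for Aadat, both well above background.

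**Figure D4:**
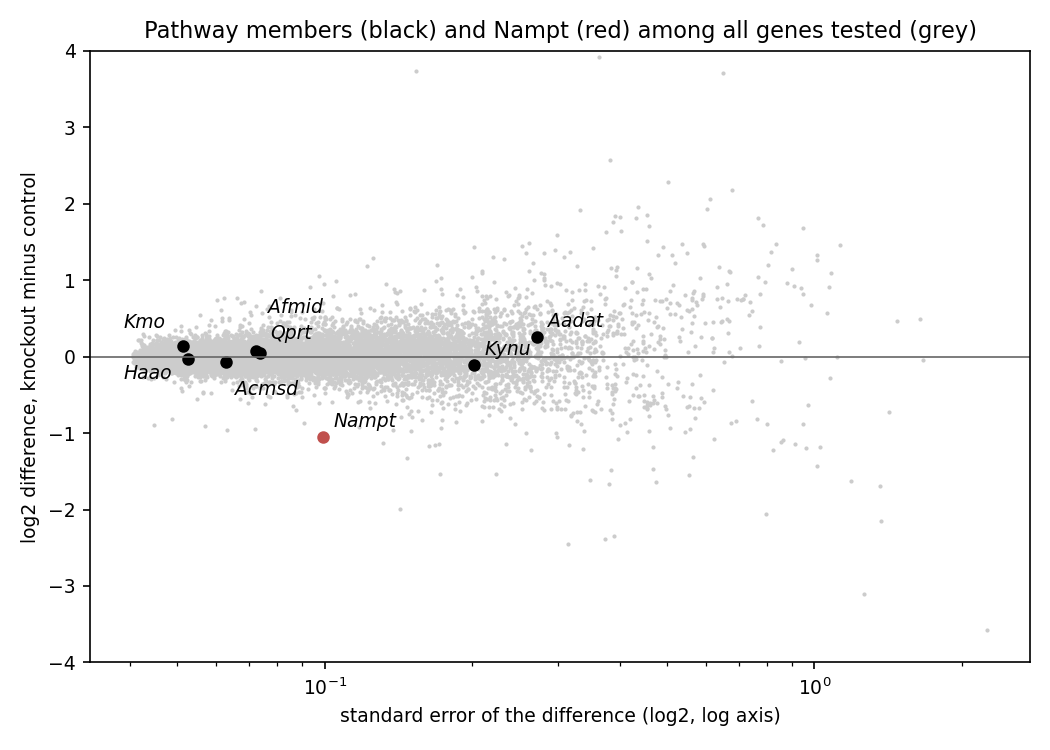
Each grey point is 1 of the 15307 genes tested, with the standard error of its difference on a log axis and its log2 difference, knockout minus control, on the vertical axis. The 7 pathway genes (black) lie inside the grey band, Kynu and Aadat among genes of large error, and Nampt (red) lies below it at -1.06.

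By a rule on likeness, each member was set against all other genes tested by the root mean square difference of profiles over the 6 arrays, centred on the control mean. The 2 nearest genes were taken, so a shared spread or a shared array that stands apart follows from that choice. Kynu came nearest to Cyp2c67 and Cyp2c68, cytochrome P450 genes, at 0.040 and 0.053 on the log2 scale. These 2 are close paralogs whose probes may cross-react, and their values are uncertain. Cyp2c67 shared the wide spread of the controls, at -0.38, 0.055 and 0.32 in controls 1, 2 and 3. Aadat came nearest to Peli3 and Trmt9b, at 0.081 and 0.090, both with knockout 1 apart at 0.80 and 0.79 above the control mean. Kmo came nearest to Xylt2 and Rpa3, Afmid to Cox15 and Slc26a11, Haao to Rab14 and Metap1, Qprt to Elovl1 and Abat, and Acmsd to Pitpna and Eif2d, at 0.011 to 0.021.

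The genes around the route were read from lists. Of 16 genes for side branches and transport of tryptophan and kynurenine, 14 were tested and 0 passed over all genes by limma. At an unadjusted p under 0.05 there was 1, where 12.8% of all genes were. It was Il4i1, an amino acid oxidase of myeloid and lymphoid cells. Il4i1 was at -1.93, -1.32 and -1.52 in knockouts 1, 2 and 3, against -2.16, -2.61 and -2.42 in controls 1, 2 and 3. Its groups did not overlap, and its difference was 0.81 ± 0.19 (SE; adjusted p = 0.208). Macrophage and dendritic cell markers are given beside it. That list's median per animal, relative to the control mean, was 0.28, 0.39 and 0.24 in knockouts 1, 2 and 3, against 0.21, -0.083 and -0.11 in controls 1, 2 and 3, with 12 of 12 markers well above background on every array. Of these markers 0 passed by limma over all genes. At an unadjusted p under 0.05 there were 8, all higher, where 1024 of all 15307 genes tested were higher. Cd74, at 0.44 ± 0.10 (SE; limma adjusted p = 0.199), and Csf1r, at 0.28 ± 0.06 (SE; limma adjusted p = 0.203), had the smallest p. The part of these markers in the Il4i1 value, or in that of Kmo or Kynu, which macrophages also express, was not tested. The amino acid transporter genes of the list ran from -0.25 (Slc7a8) to 0.14 (Slc6a19).

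On the oxidation side, downstream of ACMSD, 6 of 6 genes were tested and 0 passed by limma. At an unadjusted p under 0.05 there were also 0, where 12.8% of all genes were. The median of the 6 was 0.0055, and the range ran from -0.11 to 0.055. Aldh8a1, which encodes the dehydrogenase that takes the product of ACMSD, was at -0.055 ± 0.069 (SE; adjusted p = 0.797). Hadh, a mitochondrial dehydrogenase of fatty acid oxidation, had the smallest p (difference -0.11 ± 0.05, SE; adjusted p = 0.438).

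Among the shared last steps and other routes to NAD, 12 of 14 genes were tested, and 1 passed over all genes, Nampt itself. Nmrk1, the nicotinamide riboside kinase gene, had the next smallest p. Nmrk1 was at 1.81, 2.05 and 1.98 in knockouts 1, 2 and 3, against 2.39, 2.18 and 2.28 in controls 1, 2 and 3. All 3 knockouts lay below all 3 controls, but the difference of -0.34 ± 0.09 (SE) did not pass (adjusted p = 0.235). In 4 genes of this list, Nampt, Nmrk1, Nmnat1 and the mitochondrial NAD carrier Slc25a51, the knockouts lay wholly below the controls, where 10.5% of all genes did. Nadsyn1, the NAD synthetase gene through which the de novo and nicotinic acid routes both end, was at -0.0078 ± 0.064 (SE; adjusted p = 0.974). Naprt, which starts the nicotinic acid route, was at 0.041 ± 0.076 (SE; adjusted p = 0.864). At an unadjusted p under 0.05, 2 genes of this list were lower in the knockouts, Nampt and Nmrk1, and 0 were higher. Of all 15307 genes tested, 938 were lower at that p and 1024 higher.

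Of 14 regulator genes, all were tested and 0 passed over all genes by limma. At an unadjusted p under 0.05 there was 1, Ppara, where 12.8% of all genes were. Ppara encodes the fatty acid-sensing nuclear receptor, whose activators are known in rat liver to lower Acmsd. It was at 4.15, 4.28 and 4.28 in knockouts 1, 2 and 3, against 3.82, 3.89 and 4.10 in controls 1, 2 and 3. The groups did not overlap (difference 0.30 ± 0.09, SE; adjusted p = 0.277). Ppargc1a, a coactivator known to raise de novo enzymes in mouse kidney, was at 0.14 ± 0.09 (SE; adjusted p = 0.597).

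Markers of the proximal tubule, which carries the route in kidney, were close to the control level in the median. The convoluted proximal tubule list had a median difference of -0.038 and the straight list of -0.025, with 0 genes called by limma in either. At an unadjusted p under 0.05 there were 0 in the convoluted list and 1 in the straight list, against 12.8% of all genes. It was Cyp7b1, which hydroxylates oxysterols, at 0.17 ± 0.05 (SE; limma adjusted p = 0.251). Slc5a10, a sugar transporter of the straight part, was at -0.094 ± 0.060 (SE; adjusted p = 0.588). Slc5a12, a lactate transporter of the convoluted part, was at 0.14 ± 0.10 (SE; adjusted p = 0.640) and Slc13a3, a dicarboxylate transporter, at -0.12 ± 0.09 (SE; adjusted p = 0.655). Per animal, the convoluted list's median relative to the control mean lay between -0.064 and -0.0056 in the knockouts, against -0.046 to 0.11 in the controls. Hepatocyte markers were read because TDO2 and much of the pathway belong to liver. Of 12, 8 were detected on every array and 3 on none, and the per-animal median lay between -0.039 and 0.074 in the knockouts, against -0.057 to 0.0995 in the controls. By limma 0 were called, also at an unadjusted p under 0.05, with Serpina1a at 0.40 ± 0.27 and Apob at 0.14 ± 0.10 (SE). Which cells gave the signals of the hepatocyte list was not tested, and their detection does not show liver cells in these kidneys. Of the cell type lists, adipocyte markers varied most between animals, with list medians of -1.29, -1.83 and 0.53 in knockouts 1, 2 and 3, against 0.45, -0.49 and 0.12 in controls 1, 2 and 3. Of 10, 9 were tested and 0 were called by limma. At an unadjusted p under 0.05 there was 1 lower, where 938 of all 15307 genes tested were lower. Retn, the resistin gene, was at -1.64 ± 0.47 (SE; adjusted p = 0.271) and Car3 at -0.99 ± 0.41 (SE; adjusted p = 0.402). Their part in any value of the de novo route was not tested.

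The promoter window of Haao is shown because this enzyme makes the branch-point intermediate. It is from RefSeq on GRCm38.p6 and runs from 250 bases before to 50 bases after the gene's start, at chr17:83846741-83847040 on the minus strand, printed 5′ to 3′ on that strand. Capitals mark matches, on either strand, to AGGTCA (the half-site of nuclear receptors) or GCGTG (the core known for the aryl hydrocarbon receptor, which kynurenine metabolites can activate). These matches do not overlap.
Haao: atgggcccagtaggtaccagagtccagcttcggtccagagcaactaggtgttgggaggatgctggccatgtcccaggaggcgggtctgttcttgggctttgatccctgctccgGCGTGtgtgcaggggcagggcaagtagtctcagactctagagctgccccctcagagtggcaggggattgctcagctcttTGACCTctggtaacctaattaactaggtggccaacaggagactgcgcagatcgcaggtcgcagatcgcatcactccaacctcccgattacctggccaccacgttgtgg
Haao held AGGTCA on the opposite strand, 58 bases before the start, and GCGTG 137 bases before it. Of the 7 members with a window, 3 held AGGTCA and 3 held GCGTG. In all 32851 windows of the table, 16.3% held AGGTCA and 32.4% GCGTG. A match is a run of letters and says nothing of binding in these kidneys. The receptor gene Ahr was at -0.0049 ± 0.064 (SE; adjusted p = 0.984), and Hnf4a, of the nuclear receptor family, at -0.12 ± 0.06 (SE; adjusted p = 0.468). For Hnf4a the knockouts lay wholly below the controls, where 10.5% of all genes did. Ppara, of the same family, was at 0.30 with knockouts wholly above controls, where 9.04% of all genes were. The other nuclear receptor genes of the regulator list overlapped.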

How the data were processed

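The authors read each array's spot intensity with Agilent Feature Extraction (version 10.7.1.1 in the submitters' processing notes). Per the file headers, background and spatial trend had been taken off the processed intensity, with no scaling from array to array. The deposited table of values is, judged from its numbers, a linear ratio of that signal to 1 constant per array. The 0 or 1 flags for background, saturation and outliers were used as deposited.

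Outlier spots (92 to 151 per array) were dropped, processed intensities were put on the log2 scale, repeated spots were averaged by probe, and the 75th percentile of the array was taken off. A probe entered the test if every array of at least 1 group had it well above background. Accessions were matched without versions to RefSeq names of GRCm38.p6, which named 28026 of 55681 probes. The array's own positions are on mm9, so only names, chromosomes and the RefSeq promoter windows were used. The probe of highest mean represented a gene, and 15307 genes with a value on every array were tested with limma 3.58.1 in R 4.3.3, with Benjamini-Hochberg adjustment over all of them. Confidence intervals are limma's, at 95% and not adjusted. The fit and its intervals were tested on simulated data. Arrays have no read depth, and the 3 animals a group limit the precision. Figures were drawn with matplotlib 3.10.9 in Python 3.11.15.

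The members, gene lists and tests were chosen with earlier results of these data known. Named beyond the members are Nampt, the genes of each list that passed, otherwise the 2 of smallest p, and the 2 genes most alike to each member; 1 gene that this rule names is not reported here. Slc7a8, Slc6a19, Nadsyn1, Naprt, Nmrk1, Ppargc1a, Ahr, Hnf4a and Ido1 were added for their role after values were seen, as were Nmnat1, Slc25a51, Kyat1 and Kyat3.

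Alternatives covered the scaling (quantile, the median of detected probes, the deposited ratios, or normexp on median spot signals with offset 50 followed by quantile), 2 other filters, the mean of a gene's probes, each probe on its own, array weights, a variance prior that was trended and robust, a block for replicate number or for slide row, and each array left out.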

Additional observations from a re-analysis of the deposited data

How the results depend on the processing

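None of the 7 tested genes of the route passed an adjusted p of 0.05 by limma in any of the 18 alternative settings. At an unadjusted p under 0.05 between 0 and 2 did, and the gene that passed was not the same in every setting. The 2 were Afmid and Kmo, with array weights and without control 3, where 3607 and 1550 of all genes had such a p. Afmid, Kmo and Acmsd kept their sign in all 18, as did both balances in the settings run for them. Kmo ran from 0.097 to 0.19 (adjusted p 0.083 to 0.749). The sign turned once each for Haao (0.034 with array weights), Qprt (-0.012 with slide row as a block), Kynu and Aadat. Leaving out 1 array gave -0.33 to 0.080 for Kynu, -0.062 to 0.47 for Aadat, 0.0040 to 0.11 for Qprt, 0.037 to 0.14 for Afmid, -0.11 to -0.025 for Acmsd, -0.064 to -0.0063 for Haao and 0.12 to 0.17 for Kmo. It gave -0.13 to -0.077 for the Acmsd minus Qprt balance and 0.0031 to 0.11 for the Haao minus Acmsd balance. The cause was not tested. The count over all genes, 26, was 11 with quantile normalisation, 77 with no filter on dim probes, 57 with a trended and robust variance, 338 with array weights and 16 with slide row as a block. With the replicate number as a block it was 0 (limma; 1636 at an unadjusted p under 0.05). Leaving out 1 array gave 0 to 57, namely 57 without knockout 1, 34 without control 1, and 1 each without knockout 2 and without knockout 3. The count was 0 each without control 2 and without control 3 (limma; 1436 and 1550 genes had an unadjusted p under 0.05). Whether same-numbered animals were paired is not given in the labels. Their deviations from the group mean correlated across genes at 0.1045, -0.096 and -0.025, which with 3 animals a group cannot decide it. The replicate block left the 7 genes uncalled (limma; Kmo adjusted p = 0.529). Signals near background limit Tdo2 and Ido1.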

Other observations

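Kyat3, which encodes kynurenine aminotransferase III and so acts beside AADAT, was read by 2 probes that differed in size. The brighter probe, which stood for the gene in the comparison, was at -0.12 ± 0.07 (SE; limma adjusted p = 0.559) and its groups overlapped. The dimmer probe, A_55_P2092668, was at -0.72, -0.77 and -0.72 in knockouts 1, 2 and 3, against -0.51, -0.45 and -0.45 in controls 1, 2 and 3. All 3 knockouts lay below all 3 controls there, and the difference was -0.27 ± 0.05 (SE; adjusted p = 0.203 over all probes tested). Kyat1, of the same aminotransferase family, was at 0.16 ± 0.07 by the probe tested, with groups that did not overlap (SE; adjusted p = 0.407), and its other probe at 0.13 with groups that did. Where the probes lie on the transcripts was not analysed here.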
